A study of Mus musculus with 6 samples.

Results

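Complex I, the NADH dehydrogenase of the respiratory chain, was followed here through its nuclear genes, whose mouse symbols start with Nduf. Every row of the deposited table with such a symbol was taken, which gave 50 of 16671 genes. They are 7 core subunits, 29 accessory subunits, 8 assembly factors (Ndufaf genes), 4 gene copies or pseudogenes (Ndufb4b, Ndufb4c, Ndufs6b and Ndufs5-ps) and 2 genes with an Nduf name whose products are not counted as complex I subunits today (Ndufa4 and Ndufa4l2). Of the Ndufs and Ndufv genes, Ndufs4, Ndufs5, Ndufs6 and Ndufv3 encode accessory and not core subunits, and they are counted as such. The accessory subunit gene Ndufb1 was not analysed here. The cells were fibro-adipogenic progenitors (FAPs), stromal cells of muscle, sorted by flow cytometry out of the hindlimb of wild-type mice aged 4 to 5 months. The 3 control libraries came from cells given vehicle, and the 3 C1q libraries from cells exposed to 100 µg/ml of C1q, which starts the classical complement cascade by binding its targets. The labels give neither the length of treatment nor whether libraries came from separate mice, so the spread behind each p-value is that between these samples and may be technical.

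Complex I takes electrons from NADH, passes them over a flavin and a chain of iron-sulfur clusters to ubiquinone, and couples this to proton pumping across the inner mitochondrial membrane. A matrix arm holds the NADH-binding N module and the quinone-binding Q module, and a membrane arm holds the proton pumps. The catalytic core is shared with bacteria and is encoded partly in mitochondrial DNA, while accessory subunits surround it and assembly factors leave the finished enzyme. In stromal progenitors, as in other cells, the nuclear subunits have to be made together with the mitochondrially encoded ones.

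The reads on genes of the table numbered 5379209 in control replicate 3 and 24046020 to 38861152 in the other 5 libraries. All 50 Nduf genes had reads in all 6 libraries. The lowest count for any of the 36 core and accessory subunits was 34 reads in control replicate 3 and 101 in the others. Values are normalised read counts, meaning a gene's reads scaled for library depth. FAP markers were present at high levels (Pdgfra between 15908 and 34035, all 10 markers with reads in every library). Markers of muscle lineage cells were also present. The labels' extraction text names muscle stem cells. Of their markers, Pax7 lay between 0 and 7.58, while the myoblast genes Myod1 and Myog reached 1386 and 2356 and the muscle filament gene Des 14140.3, all in control replicate 1. Pecam1, which defines endothelial cells, lay between 0 and 94.98. Csf1r, a macrophage gene, lay between 33.6 and 68.2. Their full lists held more. The 8 endothelial markers summed to 755, 1374 and 659 in control replicates 1 to 3 and to 1012.5, 1308 and 614 with C1q. The 6 leukocyte markers measured summed to 177, 278 and 234 in controls and to 210, 602 and 264 with C1q.

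Nuclear complex I genes were lower in the C1q libraries. Of the 50, 44 were called lower and 0 higher at a Benjamini-Hochberg adjusted p below 0.05 (limma-trend over all genes). None rose at an unadjusted p below 0.05 either, or by edgeR or DESeq2. Over all 16671 genes, 18.7% were called lower and 19.7% higher. All 50 had a log2 fold change below 0, with a median of -0.68 (1.60-fold lower), against a median of 0.03 over all genes. The 3 C1q values lay below all 3 control values for 46 of the 50, while 25.4% of all genes had groups apart in that direction and 26.8% in the other. Of all genes, 38.3% were called in either direction. The 36 core and accessory subunits together summed to 49344, 51072 and 43956 in the controls (replicates 1 to 3) and to 29913, 30457 and 29329.8 with C1q. Every C1q sum was below every control sum. In bulk samples, fewer cells of a type and less RNA per cell cannot be told apart. Genes with short transcripts were lower in general here, and most Nduf transcripts are short. With a trend on transcript length removed from each library, 23 of the 46 members with a known length were called lower and 1 higher, and the median was -0.25. In that fit 18.7% of all genes were lower and 14.6% higher.

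**Figure D1:**
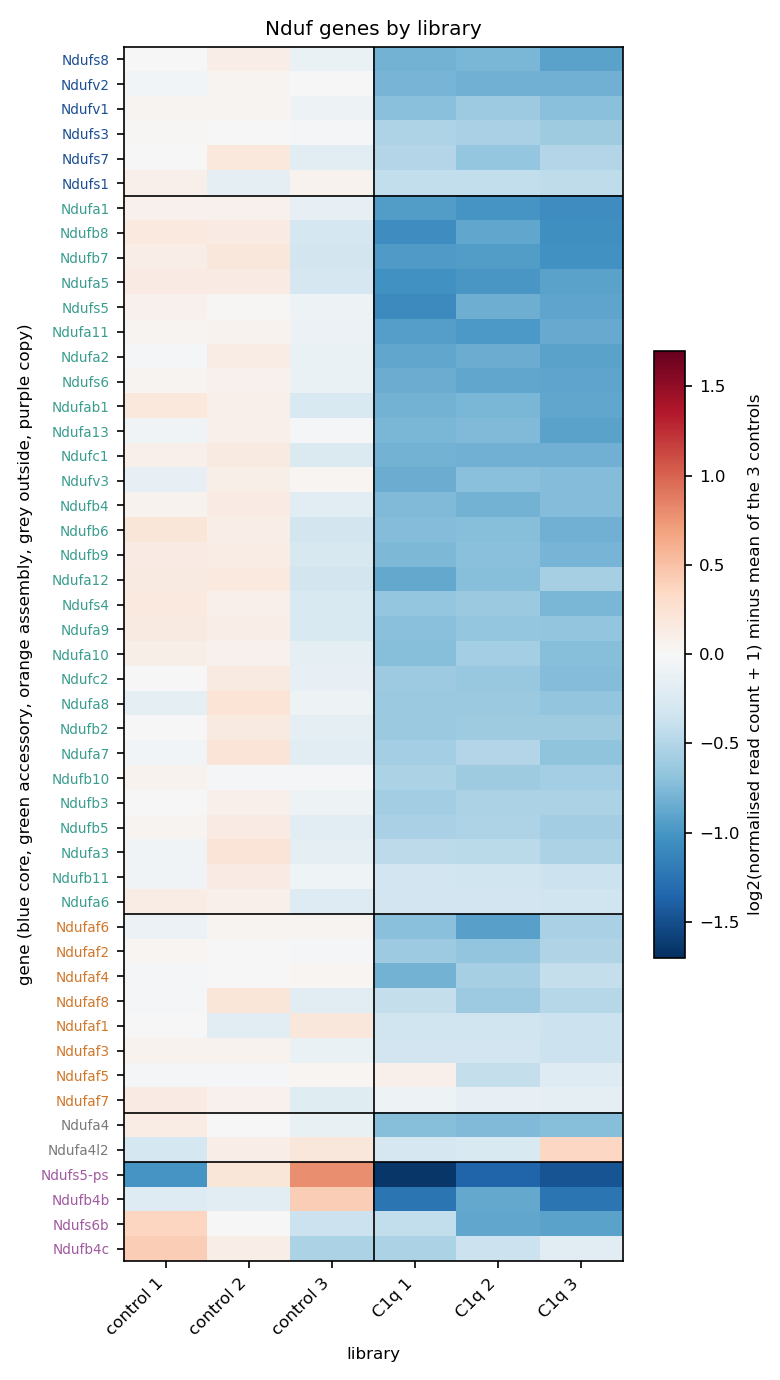
Each row is an Nduf gene (1 core subunit is not drawn) and each column a library, and the colour gives log2(normalised read count + 1) minus the mean of the 3 control libraries. The core and accessory rows are blue in all 3 C1q columns, most assembly factors are paler, and control replicate 3 is the lowest control for most subunits.

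Muscle-lineage markers moved with the groups. The 14 muscle fibre markers summed to 108158, 58212 and 28232 in control replicates 1, 2 and 3 and to 17737, 27314 and 23623 with C1q. Of these markers 6 were called lower and 2 higher (10 lower by edgeR). Pvalb went from 181, 45.6 and 17.0 to 0.705, 10.7 and 7.47 and Ckm from 1084, 469 and 166 to 51.4, 107 and 69.5. The 2 that rose encode myosin heavy chains. Myh2 went from 62.9, 107 and 51.0 to 159, 479 and 281 (log2 fold change 1.97 ± 0.42 (SE), adjusted p 0.00833), and Myh7 from 27.4, 56.4 and 17.0 to 74.0, 153 and 69.5 (log2 fold change 1.60 ± 0.48 (SE), adjusted p 0.0319). The 10 stem cell and myoblast markers summed to 34591, 23682 and 18016 in controls and 15626, 17935 and 16389.5 with C1q, with 5 lower (Myf5 and Cdh15 most, at -2.42 and -1.75) and 1 higher (Vcam1, at 0.62). The part of muscle cells in the result was not tested. FAP markers summed to 267387, 277410.3 and 292739 and 461933, 546626 and 414463, with 8 of 10 called higher. Of 8 endothelial and 6 leukocyte markers measured, 0 were called by limma, edgeR or DESeq2, and 0 had an unadjusted p below 0.05. Of 6 mural markers 3 were higher, and of 5 Schwann cell markers 3. With the length trend removed, 6 of the 10 FAP, 3 of the 6 mural and 1 of the 5 Schwann cell markers were higher. Of the 14 muscle fibre markers 7 were then lower and 1 higher. Of the 10 stem cell and myoblast markers 5 were lower and 1 higher. In that fit 1 leukocyte marker was lower and 0 endothelial markers were called.

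All 7 core subunits encoded in the nucleus were called lower, with a median log2 fold change of -0.56. Ndufv1 (chromosome 19, 4007499 to 4012755, GRCm38 like all positions here) encodes the subunit that binds NADH and the flavin. It stood at 2334, 2319 and 2113 in the controls (replicates 1 to 3, the order used throughout) and at 1379.6, 1463 and 1381 with C1q (log2 fold change -0.68 ± 0.07 (SE), adjusted p 0.000407). Its neighbour in the N module, Ndufv2 (chromosome 17, 66078795 to 66101559), carries an iron-sulfur cluster beside the flavin. Ndufv2 read 1936, 2078 and 1998 in controls and 1160.5, 1136 and 1134 with C1q (log2 fold change -0.81 ± 0.06 (SE), adjusted p 0.000196). The groups of both genes were far apart and the libraries within a group were close to each other. Ndufs1 (chromosome 1, 63143592 to 63176822), the large subunit that carries most of the iron-sulfur clusters of the N module, read 1793, 1521 and 1764 in controls and 1265, 1263 and 1249 with C1q (log2 fold change -0.42 ± 0.08 (SE), adjusted p 0.00447). Control replicate 2 was the lowest control for Ndufs1, and it still lay above every C1q library.

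In the Q module, Ndufs3 (chromosome 2, 90894627 to 90904721), a core subunit that joins early in assembly, had 1385, 1366 and 1343 in controls and 953, 931 and 898 with C1q (log2 fold change -0.56 ± 0.06 (SE), adjusted p 0.000543). Ndufs7 (chromosome 10, 80249105 to 80256794) carries the terminal cluster that hands electrons to ubiquinone, and had 1091, 1233 and 948 in controls and 764, 689 and 770.2 with C1q (log2 fold change -0.55 ± 0.11 (SE), adjusted p 0.00553). Ndufs8 (chromosome 19, 3908863 to 3912774) carries the clusters before it, and had 998, 1081 and 922 in controls and 573, 579.9 and 532 with C1q (log2 fold change -0.83 ± 0.08 (SE), adjusted p 0.00042). For none of these Q module genes did a control library fall to the level of a C1q library. Ndufs8 and Ndufv2 changed most, and 3 of 7 core genes (Ndufs8, Ndufv2 and Ndufv1) were at least 1.5-fold lower, against 9.50% of all genes.

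Accessory subunits were lower as well: 28 of 29 were called, with a median of -0.76 and a range from -1.005 to -0.33. With the 3 copies that the list of accessory genes also held, 29 of 32 were called. Of the 29, 23 were at least 1.5-fold lower and called. In the matrix arm, Ndufa2, a small N module protein with a thioredoxin-like fold, had the largest change among accessory genes of its module. It read 1617, 1801 and 1526 in controls and 888, 912 and 878 with C1q (log2 fold change -0.88 ± 0.08 (SE), adjusted p 0.000294). Ndufa6, a LYR-motif protein that anchors an acyl carrier protein, was the accessory subunit that missed the threshold. It read 239, 232 and 187 in controls and 173, 173 and 173 with C1q (log2 fold change -0.33 ± 0.13 (SE), adjusted p 0.0792). The 3 C1q values of Ndufa6 lay below all controls, control replicate 3 was the nearest, and the adjusted p was 0.0129 without that library and 0.0305 with edgeR. The other N module accessory genes, Ndufs4, Ndufs6, Ndufv3, Ndufa7 and Ndufa12, were called at -0.59 to -0.87. In the Q module, Ndufa5 read 879, 882 and 655 in controls and 391, 401 and 423 with C1q (log2 fold change -0.98 ± 0.13 (SE), adjusted p 0.000989). Ndufa9, which binds a nucleotide cofactor near the quinone site, read 1729, 1682 and 1301 in controls and 951, 983 and 979 with C1q (log2 fold change -0.68 ± 0.11 (SE), adjusted p 0.00262). In Ndufa5 and Ndufa9 control replicate 3 was the lowest control and remained above the C1q libraries.

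In the proximal part of the membrane arm all 9 accessory genes were called lower (median -0.81). Ndufa1 (chromosome X, 37187588 to 37191238), a small membrane-spanning subunit required for assembly, changed most among all 36 subunits. It fell from 915, 914 and 795 in the controls to 450.2, 435 and 419 with C1q (log2 fold change -1.005 ± 0.08 (SE), adjusted p 0.000265). Ndufa3 changed least of these 9, at 1236, 1501 and 1169 in controls and 952, 939.5 and 894 with C1q (log2 fold change -0.48 ± 0.10 (SE), adjusted p 0.0077). The other 7, Ndufa8, Ndufa10, Ndufa11, Ndufa13, Ndufc1, Ndufc2 and Ndufs5, lay between -0.65 and -0.93. In the distal part, which carries the Ndufb subunits, all 10 were called (median -0.69). Ndufb8, whose protein is widely used to follow complex I on blots, read 1895, 1863 and 1373 in controls and 817, 916 and 821 with C1q (log2 fold change -0.99 ± 0.13 (SE), adjusted p 0.00107). Ndufb11, an X-linked membrane subunit, read 1588, 1819 and 1573 in controls and 1319, 1307 and 1286 with C1q (log2 fold change -0.35 ± 0.07 (SE), adjusted p 0.0088). Both genes had groups that did not overlap, with Ndufb8 at 50.3% of its control level and Ndufb11 at 78.7%. The other 8 distal genes lay between -0.55 and -0.98. Ndufab1, the mitochondrial acyl carrier protein found in both arms, read 1184, 1103 and 867 in controls and 598, 605 and 566 with C1q (log2 fold change -0.82 ± 0.12 (SE), adjusted p 0.00157). The matrix arm (16 genes) had a median of -0.68 and the membrane arm (19 genes) one of -0.76, and the difference between the arms was not tested.

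**Figure D2:**
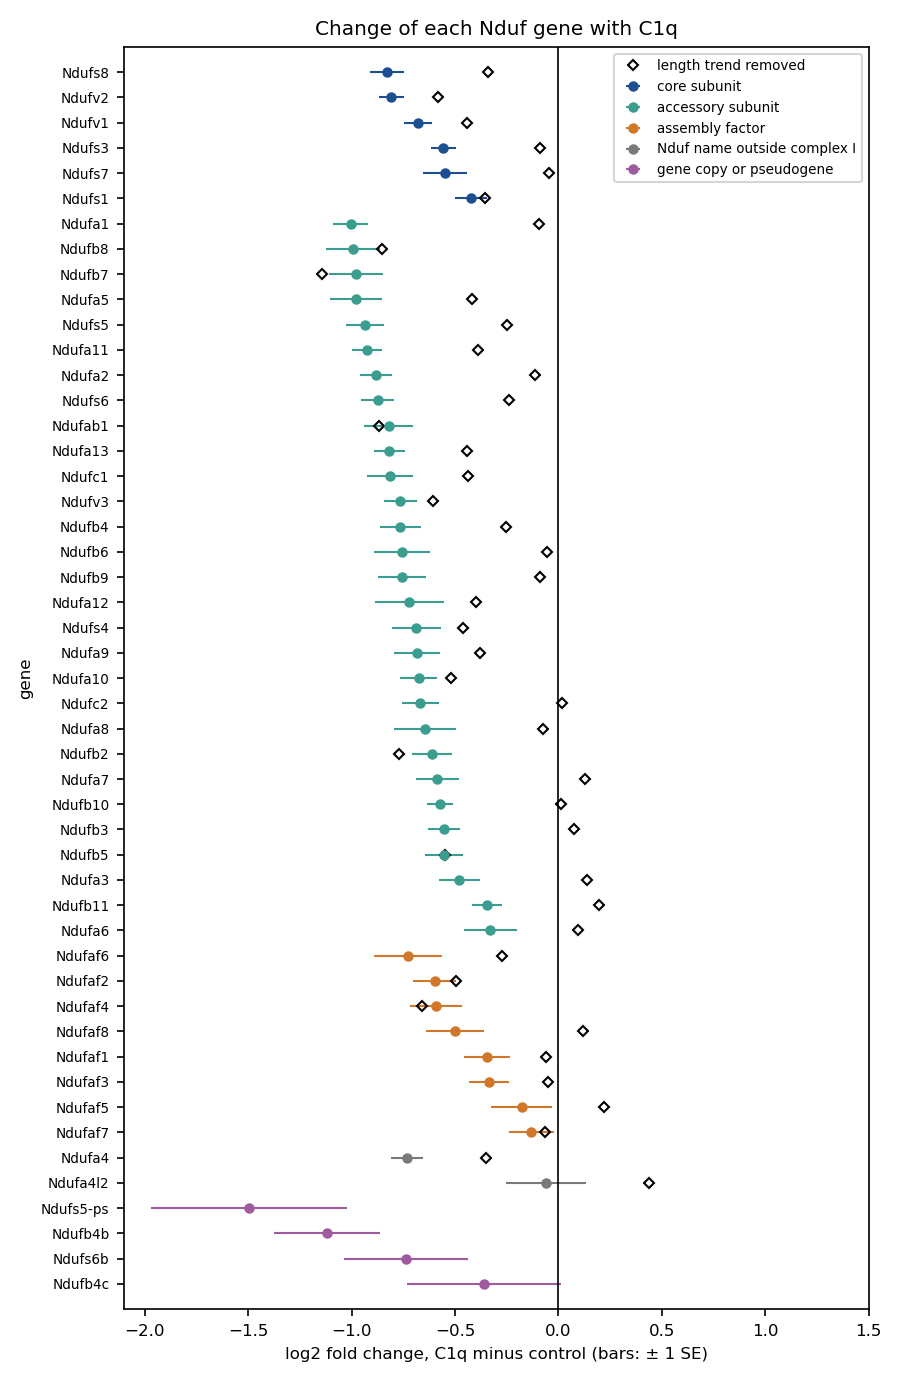
Filled points give the log2 fold change of each Nduf gene (C1q minus control, bars ± 1 SE), coloured by role, and open diamonds give the value once a trend on transcript length is removed. One core subunit is not drawn. Every filled point drawn lies left of 0, and 10 diamonds lie right of it.

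Of the 8 Ndufaf genes, 6 were called lower, with a median of -0.42, and their summed level with C1q was 76.8% of the control mean, against 67.3% for core and 60.2% for accessory subunits. The difference between these roles was not tested. Ndufaf6, needed for the mitochondrially made subunit ND1, changed most, from 111, 124 and 123 in controls to 72.6, 62.4 and 81.4 with C1q (log2 fold change -0.73 ± 0.16 (SE), adjusted p 0.0107). Ndufaf2, a relative of Ndufa12 that holds its place during assembly, went from 266, 257 and 255 to 169, 163 and 182 (log2 fold change -0.60 ± 0.10 (SE), adjusted p 0.00335). Ndufaf4 and Ndufaf3 act together on the Q module. Ndufaf4 read 297, 302 and 310.3 in controls and 173, 205 and 229 with C1q (log2 fold change -0.59 ± 0.13 (SE), adjusted p 0.00811), and the C1q libraries were spread but did not reach the controls. Ndufaf3 read 315, 317 and 281 in controls and 242, 243 and 236 with C1q (log2 fold change -0.34 ± 0.10 (SE), adjusted p 0.0281). Ndufaf1, part of the complex that builds the proximal membrane arm, read 442, 384 and 502 in controls and 347, 349 and 341 with C1q (log2 fold change -0.35 ± 0.11 (SE), adjusted p 0.0416). Ndufaf8, the partner of Ndufaf5, read 207, 243 and 187 in controls and 159.9, 137 and 150.2 with C1q (log2 fold change -0.50 ± 0.14 (SE), adjusted p 0.0246). For Ndufaf3, Ndufaf1 and Ndufaf8 the groups did not overlap, but the calls were lost in most fits that left out 1 library. Such fits also called fewer of all genes lower (2264 to 2800, against 3112), except the fit without control replicate 3 (3583). Ndufaf1 lost its call on leaving out any library but control replicate 2 (adjusted p 0.0683 to 0.119). Ndufaf3 lost it on leaving out any but control replicate 3 (0.0684 to 0.0968). Ndufaf8 lost it on leaving out control replicate 1 or 2 or C1q replicate 2 or 3 (0.0544 to 0.0903). Thus 3 of the 8 assembly factors were called without control replicate 1, C1q replicate 2 or C1q replicate 3.

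The remaining Ndufaf genes encode enzymes that modify core subunits. Ndufaf5, which hydroxylates an arginine of Ndufs7, stood at 192, 193 and 199.8 in controls and 208, 147 and 167 with C1q (log2 fold change -0.18 ± 0.15 (SE), adjusted p 0.382), and C1q replicate 1 was the highest of all 6 libraries. Ndufaf7, a methyltransferase that acts on a core subunit, stood at 437, 419 and 344 in controls and 373, 363 and 355 with C1q (log2 fold change -0.13 ± 0.11 (SE), adjusted p 0.385), and control replicate 3 was the lowest of all 6. Neither was called. Of 13 measured assembly factors without an Nduf name, 7 were called lower and 0 higher, with a median of -0.30 (4 lower and a median of -0.17 with the length trend removed). Tmem126a, which acts on the ND4 part of the membrane arm, went from 798, 820.0 and 701 in controls to 400.2, 406 and 401 with C1q (log2 fold change -0.94 ± 0.08 (SE), adjusted p 0.000317). Aifm1, a flavoprotein that helps import disulfide-bonded subunits, went from 1051, 822 and 1156 to 538, 581 and 592 (log2 fold change -0.81 ± 0.13 (SE), adjusted p 0.00223). Acad9, a partner of Ndufaf1, was named after its values were seen. It stood at 822, 800.7 and 761 in controls and 806, 862 and 849 with C1q (log2 fold change 0.08 ± 0.07 (SE), adjusted p 0.401), with groups that overlapped.

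Of the genes with an Nduf name outside complex I, Ndufa4 encodes a protein now assigned to cytochrome c oxidase. It read 2423, 2224 and 2040.5 in controls and 1340.1, 1327 and 1346 with C1q (log2 fold change -0.73 ± 0.08 (SE), adjusted p 0.000459). Its relative Ndufa4l2, known as a hypoxia-induced gene, read 933, 1231 and 1301 in controls and 939, 958 and 1464 with C1q (log2 fold change -0.06 ± 0.19 (SE), adjusted p 0.832), with C1q replicate 3 above every control. The SE of 0.19 allows a rise or a fall, and exons of Shmt2 overlap this gene on the opposite strand. With the length trend removed Ndufa4l2 stood at 0.44 (adjusted p 0.148, or 0.00979 in the blocked fit, which pairs libraries by replicate number). The 4 copies had few reads. Ndufb4b read 57.1, 57.9 and 89.3 in controls and 27.5, 36.1 and 27.6 with C1q (log2 fold change -1.12 ± 0.26 (SE), adjusted p 0.0115), and Ndufs5-ps read 12.8, 30.9 and 46.8 in controls and 7.75, 9.75 and 8.96 with C1q (log2 fold change -1.50 ± 0.47 (SE), adjusted p 0.0403). The call of Ndufs5-ps was lost on leaving out any library other than control replicate 1 (adjusted p 0.0736 to 0.113). Ndufs6b read 43.1, 33.2 and 25.5 in controls and 24.7, 17.5 and 17.2 with C1q (log2 fold change -0.74 ± 0.30 (SE), adjusted p 0.091, and 0.0353 without control replicate 3), and Ndufb4c read 17.5, 13.9 and 8.50 in controls and 8.46, 9.75 and 11.2 with C1q (log2 fold change -0.36 ± 0.37 (SE), adjusted p 0.483). Copies share sequence with their parent genes, so reads could be split between them. Of 46 members with an annotated coding sequence, 13 had another annotated transcript with at least 90% identity over at least 80% of the coding sequence: Ndufa4, Ndufa7, Ndufa11, Ndufa12, Ndufab1, Ndufb2, Ndufb3, Ndufb4, Ndufb7, Ndufb11, Ndufs3, Ndufs5 and Ndufs6. Exons on the opposite strand overlapped 17 members, among them Ndufa2, Ndufa3, Ndufa4l2, Ndufa9, Ndufa11, Ndufa13, Ndufab1, Ndufb2, Ndufb5, Ndufb6, Ndufb11, Ndufs1, Ndufs3, Ndufs6, Ndufaf2 and Ndufaf3, and the counting's strand setting is not given in the sources used here. Exons of another gene on the same strand overlapped 3 members (Ndufb2, Ndufb8 and Ndufb9). The values of all these genes are uncertain to that extent.

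Transcript length was compared because the fold change rose with length over the whole table (Spearman rho 0.384 across 14934 genes, which share libraries and are not independent replicates). The longest annotated transcript had a median of 1170.5 bases over 46 Nduf genes and 3339 over all genes. Among transcripts of up to 800 bases, 11 of 11 Nduf genes were called lower with a median of -0.76, beside 43.4% of all 366 genes with a median of -0.58. Above 800 and up to 1200 bases, 10 of 13 were lower with a median of -0.57, beside 46.7% of 706 genes and -0.48. Short genes in general were thus lower too, by somewhat less in the median. Above 1200 and up to 2000 bases, 11 of 11 were lower with a median of -0.69, beside 35.4% of 2117 genes and -0.26. Above 2000 and up to 4000 bases, 8 of 9 were lower with a median of -0.60, beside 20.6% of 6179 genes and -0.03. Over 4000 bases lay Ndufb2 and Ndufb7, both lower, beside 8.03% of 5566 genes. By principal transcript, 17 of 18, 10 of 12, 10 of 11, 4 of 4 and 1 of 1 members were lower in these ranges, beside 53.7%, 48.3%, 33.3%, 17.8% and 6.77% of all genes. Within the 46, the fold change followed length less than over all genes. Spearman rho was 0.141 by longest transcript, and by principal transcript it was 0.267 (0.402 over all genes). The longer Nduf genes thus stood further from genes of their length than the shorter ones did. By principal transcript this rests on few long members, the 4 and the 1 of the last 2 ranges.

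**Figure D3:**
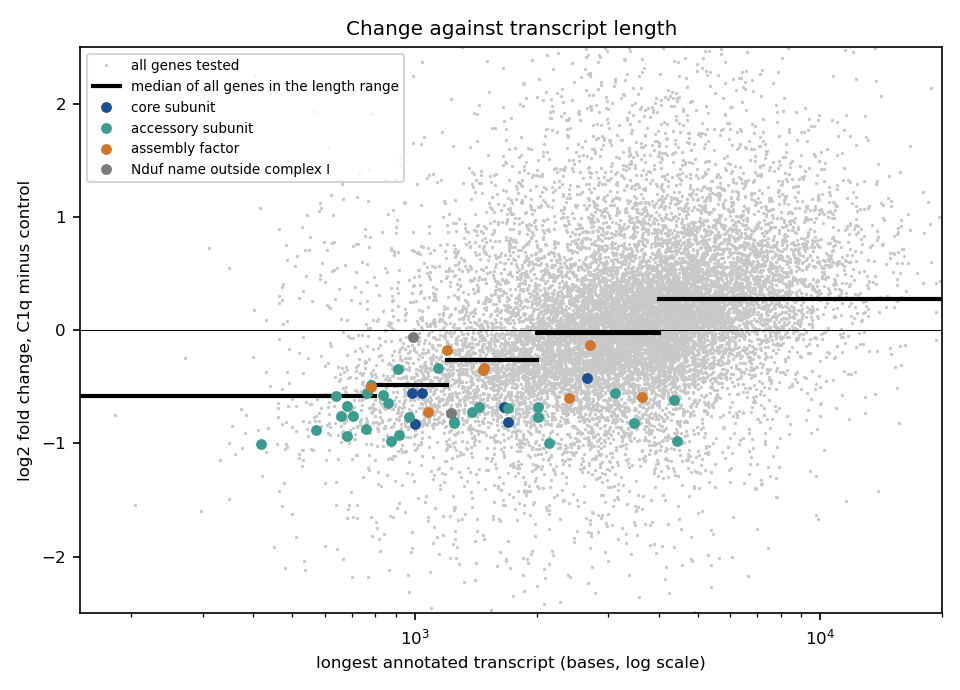
Grey dots are all genes with a known length, placed by the longest annotated transcript (log axis) and the log2 fold change (C1q minus control, values beyond ± 2.5 and transcripts past the right edge not drawn), black bars are medians of all genes in 5 length ranges, and coloured points are Nduf genes by role. The bars climb from -0.58 to 0.28, while the Nduf points stay between -1.005 and -0.06 at every length.

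With the length trend removed, 5 of 7 core subunits were still called lower (median -0.34). Ndufv2 stood at -0.58 (adjusted p 0.000685), Ndufv1 at -0.44 (0.00164), Ndufs1 at -0.35 (0.0194) and Ndufs8 at -0.34 (0.0067), all by limma. Ndufs3 and Ndufs7 were near 0 (-0.09 and -0.05) and not called. Of 29 accessory subunits, 15 remained lower and 1, Ndufb11, was called higher (0.20, adjusted p 0.0309, or 0.0509 and so not called when blocked by replicate). Ndufa1, the largest change without this step, moved to -0.09 (adjusted p 0.539). Of the 8 assembly factors, Ndufaf2 and Ndufaf4 remained lower. The annotated longest transcript is not always the main one: for Ndufb7 it has 4435 bases and the principal transcript 623. With principal transcripts in its place, 20 of 46 members were lower and 2 higher (Ndufa3 at 0.27 and Ndufa6 at 0.36), beside 19.0% and 14.4% of all genes, and Ndufb7 moved from -1.14 to -0.31. Ndufaf2 then stood at 0.03 and was no longer called. A total of 18 members were called lower in both length-removed fits. Among them were the core genes Ndufv1, Ndufv2, Ndufs1 and Ndufs8 and the accessory genes Ndufab1, Ndufa10, Ndufa13, Ndufc1, Ndufs4 and Ndufv3.

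The 36 subunits varied little among C1q libraries. The coefficient of variation of the 3 C1q values had a median of 3.12% over the subunits, and that of the 3 control values one of 10.5%. For genes with a control mean of at least 100 in general, the medians were 5.63% and 9.65%. Control replicate 3 was the lowest control for 30 of the 36 subunits, and for 38.9% of all genes with a control mean of at least 100. The median subunit stood at 103%, 107% and 90.1% of its control mean in control replicates 1 to 3 and at 59.8%, 61.7% and 59.8% in C1q replicates 1 to 3. Per kilobase of the principal transcript, the control level was highest for Ndufa7 (3782 ± 524 normalised reads, SD, n = 3) and Ndufa2 (2881 ± 245), whose values do not overlap. It was lowest for Ndufa8 (179 ± 26.9) and Ndufb2 (131 ± 14.0), the latter with an annotated principal transcript of 4371 bases. The order of the subunits by level per kilobase was much the same in both groups (Spearman rho 0.967 over 36 genes, which share libraries and lengths).

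The 7 complex I subunits encoded in mitochondrial DNA, which include the proton-pumping core of the membrane arm, were all called lower (median -1.09). ND1, which forms part of the quinone channel, went from 135878, 114856 and 96623 in the controls to 44008, 53387 and 46298 with C1q (log2 fold change -1.26 ± 0.17 (SE), adjusted p 0.00121). The pump subunits ND2, ND4 and ND5 changed by -0.99, -1.08 and -1.03. ND3, ND4L and ND6, small membrane subunits between the pumps and the matrix arm, changed by -1.49, -1.60 and -1.09, and ND6 lies on the other strand beside ND5, so its reads are uncertain. ND3 and ND4L had far lower control means (347 and 607) than the rest (36310 to 115786), and the end of ND4L overlaps ND4. Control replicate 3 was the lowest control for ND1, ND2, ND4, ND5 and ND6 and the highest for ND3 and ND4L. With the length trend removed, 4 of the 7 were called and the median was -0.54. ND3, ND4L and ND6 were then at -0.50, -0.54 and -0.28 and not called. Nuclear genes copied from mitochondrial DNA could share these reads. In sum the 7 genes held 46.2% of their control level with C1q, and the 36 nuclear subunits 62.1%.

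Nuclear genes of the other respiratory complexes were lower as well. Of 41 genes of complexes II to V, 36 were called lower and 0 higher by limma, edgeR and DESeq2 alike, with a median of -0.81, against -0.70 for the 36 complex I subunits. Complex II, which feeds electrons from succinate and pumps no protons, had the smallest median of the 4 (-0.33, 4 of 8 called), with Sdhc at -0.69 and Sdhaf1 at -0.68. Its list, unlike that of the 36 complex I subunits, includes assembly factor genes (the Sdhaf genes). Of its other subunit genes, Sdhb was called lower at -0.66 and Sdha stood at -0.003 and was not called. Sdhd had 1 to 26 reads and was not called. Complex III had 8 of 8 (median -0.80, Uqcrq at -1.23 and Uqcr10 at -0.89), complex IV 9 of 10 (-0.89, Cox7b at -1.06 and Cox5a at -1.01) and complex V 15 of 15 (-0.83, Atp5g1 at -1.15 and Atp5k at -1.06). Of 12 genes of the outer membrane and protein import, 9 were lower and 0 higher (median -0.57), led by the import pore genes Tomm6 (-1.003) and Tomm40 (-0.94). With the length trend removed, 27 of the 41 genes of complexes II to V were lower and 1 higher, with a median of -0.35. By complex, 4 of 8, 5 of 8, 5 of 10 and 13 of 15 were then lower from II to V, and Uqcr10 moved to -0.07. The outer membrane and import list kept 7 of 12 (median -0.35). None of these complexes was tested against complex I.

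**Figure D4:**
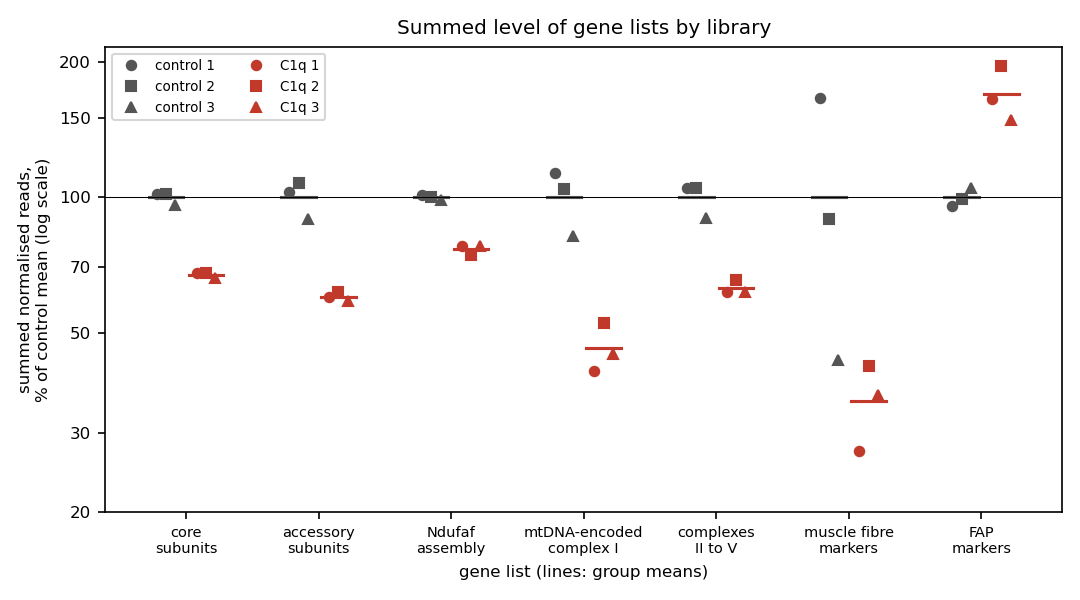
For each gene list, points give the summed normalised reads of each library as a percentage of the control mean (log axis), grey for control and red for C1q, and lines give group means. Core, accessory and assembly sums with C1q lie at 67.3%, 60.2% and 76.8% of control, and muscle fibre markers spread widely among the controls.

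Of 10 transcription factors and coactivators that act on nuclear respiratory genes, 2 were higher, 2 were lower and 6 were not called, shares near those of all genes (19.7% and 18.7%). Gabpa, an ETS factor, rose from 1079.7, 1050.1 and 1156 to 1500.1, 1656 and 1597 (log2 fold change 0.53 ± 0.07 (SE), adjusted p 0.00111). Myc fell from 751, 1030.1 and 825 to 462, 680.3 and 625 (log2 fold change -0.57 ± 0.17 (SE), adjusted p 0.0331). Nrf1, Tfam and the coactivator Ppargc1a, named for their roles after the values were seen, differed by -0.08 (adjusted p 0.468), -0.21 (0.0576) and -0.29 (0.397), and were not called in the main limma fit. Tfam was called lower by edgeR (adjusted p 0.0364) and by limma with the length trend removed (-0.34, adjusted p 0.00987). In that length-removed fit 1 of the 10 was lower and 1 higher. Gabpa then stood at 0.30 (adjusted p 0.0113) and Myc at -0.45 (0.0679, not called). The coactivator Ppargc1b had the largest difference of the 10. It read 85.1, 84.9 and 29.8 in controls and 12.7, 41.9 and 35.9 with C1q (log2 fold change -1.13 ± 0.56 (SE), adjusted p 0.15). Its groups overlapped, with control replicate 3 below 2 of the C1q libraries, and DESeq2 called it lower (adjusted p 0.0381). Ppargc1a was low, at 55.4, 70.3 and 55.3 in controls and 35.9, 55.6 and 58.3 with C1q. Since the Nduf genes moved together, the 250 bases before the start of 41 of them were searched on both strands in RefSeq promoter sequences of GRCm38.p6. The NRF1 motif, searched as GCGCA and GCGC with any base between, was found for 7 of 41 (17.1%) and for 8.2% of 12371 genes of the table. CCGGAAG, an ETS motif, was found for 5 (12.2%, against 13.8%), GGGCGG, an SP1 motif, for 19 (46.3%, against 60.5%), AAGGTCA, a site of the estrogen-related receptor, for 3 (7.3%, against 3.6%) and AAGATGGCG, a YY1 motif, for 0 (against 1.2%). Matches of different motifs may overlap. A match is a description of letters, and with 41 genes these shares are coarse. Windows that hold no annotated exon and carry NRF1, ETS or SP1 matches include those of Ndufaf1, Ndufa3 and Ndufb8. The 3 windows printed also meet this and are shown as examples. They read 5′ to 3′ toward the gene's start, and capitals mark matches on either strand. Ndufaf4 is at chr4:24897833-24898082, plus strand, Ndufb6 at chr4:40279422-40279671, minus strand and the core gene Ndufv2 at chr17:66101560-66101809, minus strand.
Ndufaf4: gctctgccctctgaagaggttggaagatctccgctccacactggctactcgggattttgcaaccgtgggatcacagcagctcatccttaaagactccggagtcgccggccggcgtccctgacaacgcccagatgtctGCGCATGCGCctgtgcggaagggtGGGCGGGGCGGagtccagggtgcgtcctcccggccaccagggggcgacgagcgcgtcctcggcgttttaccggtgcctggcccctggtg
Ndufb6: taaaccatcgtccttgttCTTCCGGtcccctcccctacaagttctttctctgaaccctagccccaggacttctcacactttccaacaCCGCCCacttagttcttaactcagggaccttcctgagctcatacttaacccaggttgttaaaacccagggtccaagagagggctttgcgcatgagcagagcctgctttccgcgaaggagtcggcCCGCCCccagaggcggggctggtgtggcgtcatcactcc
Ndufv2: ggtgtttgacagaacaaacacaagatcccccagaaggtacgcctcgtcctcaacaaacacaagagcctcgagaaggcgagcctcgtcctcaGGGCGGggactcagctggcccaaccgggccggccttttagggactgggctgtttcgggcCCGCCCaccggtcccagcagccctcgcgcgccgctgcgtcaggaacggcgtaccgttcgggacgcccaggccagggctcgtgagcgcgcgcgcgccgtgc
Ndufaf4 holds 1 NRF1 and 2 SP1 matches that share 1 base, Ndufb6 1 ETS and 2 SP1 matches, and Ndufv2 2 SP1 matches.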

How the data were processed

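RNA sequencing covered 6 libraries, 3 control and 3 C1q, each prepared from 10 ng of RNA with a low-input SMART-Seq kit, per the labels. The deposited table holds a normalised signal, namely reads of each gene after scaling for depth by the authors. The submitters' processing notes list Trimmomatic, HISAT2, featureCounts, DESeq2 and mm10 without versions. All values (100%) were whole multiples of 1 read within 0.001 of a read, so reads could be recovered. A read is worth 4.25 units in control replicate 3 and 0.583 to 0.975 elsewhere, which makes low genes of that library the least precise.

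Symbols came from RefSeq for GRCm38.p6 (16077 of 16671 IDs) and lengths from GENCODE (14934 IDs, 89.6%). Fold changes are differences in log2(value + 1), tested by limma-trend with p-values adjusted over 16671 genes (R 4.3.3, limma 3.58.1). Count tests on recovered reads (edgeR 4.0.16, DESeq2 1.42.0) served as alternatives, and edgeR called 3595 genes lower and 3351 higher, against 3112 and 3277 by limma. For the comparison at like length, a loess trend (span 0.5, genes with a mean of at least 20) was removed from each library. Copies were searched with blastn 2.17.0. Scripts were tested on simulated data. Libraries of a group differed by more than sampling noise (chi-square per degree of freedom 16.5 to 40.3). Same-numbered libraries deviated together weakly (correlations 0.123, 0.175 and 0.132). Control and C1q libraries of different numbers had lower correlations, from -0.132 to 0.00485. The main fit did not pair libraries, and fits blocked by replicate number served as alternatives.

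Members, gene lists and the naming rule were chosen with earlier results of these data known. The rule named core subunits, the accessory genes with the largest and smallest change in each module, assembly factors, uncalled members and the 2 largest called changes of each other list. Acad9, Sdha, Sdhb, Sdhd, Ppargc1b, Nrf1, Tfam, Ppargc1a and marker genes fall outside it. The values of 1 core subunit are not reported here, though counts and sums include it.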

Additional observations from a re-analysis of the deposited data

How the results depend on the processing

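The count of 44 lower members stayed at 39 to 46 and the count of higher members at 0 with other pseudocounts, filters, edgeR scalings, DESeq2, limma-voom, GC trend removal, thinning to 5379209 reads, and the replicate block, which changed no call among the 50 members. These scalings moved the median of all genes by less than 0.05. Leaving out each library gave 40 to 44 lower members, 7 core, 29 to 31 accessory and 3 to 5 assembly factors, and medians from -0.74 to -0.64. An adjusted p below 0.01 left 36 lower members, with 26 accessory genes and 2 assembly factors. A fold of at least 1.5 left 32 lower members, with 3 core genes, 24 accessory genes and 3 assembly factors. Removing the length trend gave 23 lower and 1 higher members (15 accessory, 2 assembly factors, median -0.25). With the replicate block as well it gave 22 lower and 1 higher (14 accessory, 2 assembly factors, median -0.25). With principal transcript lengths, chosen after seeing the data, it gave 20 lower and 2 higher (14 accessory, 1 assembly factor, median -0.18). The cause of the length trend was not tested.

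Signs turned mostly where the length trend was removed, with and without the block, at Ndufb3 (0.0754), Ndufa4l2 (0.44), Ndufaf8 (0.12), Ndufa6 (0.0948), Ndufb10 (0.0111), Ndufa7 (0.13), Ndufaf5 (0.22), Ndufa3 (0.14), Ndufc2 (0.0153) and Ndufb11 (0.20). With principal lengths they turned at Ndufb3 (0.0234), Ndufa4l2 (0.42), Ndufaf8 (0.0659), Ndufaf2 (0.0323), Ndufa6 (0.36), Ndufb10 (0.0216), Ndufa7 (0.15), Ndufaf7 (0.0330), Ndufaf5 (0.20), Ndufa3 (0.27) and Ndufb11 (0.15). Uncalled genes also turned: Ndufa4l2 with the GC trend removed (0.0146) and Ndufaf5 on thinning (0.0379). Leaving out single libraries moved Ndufa4l2 from -0.27 to 0.0505.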
